A study of Rattus norvegicus with 6 samples.

Results

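The miR-30 family was followed on both arms of its hairpins in small RNA libraries of rat peri-infarct cortex, the tissue that borders the dead core of a stroke. The family consists of 10 mature miRNAs, 5 from the 5p arms and 5 from the 3p arms, among the 493 mature miRNAs in the table of counts, where the prefix rno marks the rat. The members were taken by name, and all 10 were found. The family was selected on the differences between its arms and between the groups in these same counts, so its fold changes and arm ratios are given as a description, with standard errors or SDs and with no p-value for a member. All 6 rats were Sprague-Dawley males in which the right middle cerebral artery was blocked for 90 min before blood flow was restored. The 3 rats of the MCAO group (MCAO for middle cerebral artery occlusion, here MCAO rats) are labelled with no further treatment, and their cortex was taken at 7 days. The other 3 rats, the MCAO + rTMS group (here rTMS rats), were given repetitive transcranial magnetic stimulation (rTMS). In rTMS, magnetic pulses come from a coil held over the skull, here labelled as 10 Hz for 10 min a day on 7 consecutive days. In the study's methods the pulses came in short trains with longer rests between them, so they were not continuous. The labels do not give the day on which the cortex of the rTMS rats was taken. The study's methods start stimulation the day after blood flow was restored. Whether the groups differ in time after the stroke is therefore not known from the labels. The heading of the study's supplementary list of differing miRNAs gives 7 days after the stroke model, with no separate day for either group. The age of the rats is not given in the labels. None of these libraries came from a sham-operated rat, the labels name no sham stimulation, and each library came from 1 rat.

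A miRNA gene is transcribed as a longer RNA that folds into a hairpin, from which a short duplex is cut. In most hairpins 1 strand of the duplex is loaded into an Argonaute protein and guides it to messenger RNAs, while the other strand is degraded. The strands are named 5p and 3p after the side of the hairpin they come from. The seed, bases 2 to 8 of the loaded strand, sets most of its targets, so the 5p and the 3p miRNA of a hairpin recognize different messenger RNAs. The miR-30 5p miRNAs are abundant in brain, heart and kidney, and known targets of miR-30a-5p are Becn1, whose protein helps to start autophagy, and Bdnf, which encodes a neurotrophin. The miR-30 genes lie in pairs. In the GRCr8 assembly Mir30a and Mir30c2 are neighbours on chromosome 9, Mir30b and Mir30d are neighbours on chromosome 7 within the span of the long noncoding RNA gene LOC102551574, and Mir30e and Mir30c1 are neighbours on chromosome 5 within the span of Nfyc, which encodes a subunit of the transcription factor NF-Y. The genome build named in the processing notes is rn6, so no coordinates are given.

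Mature sequences of 5 of the 10 members were found in the RefSeq table of GRCr8. They are shown 5′ to 3′ with the seed in capitals, because the results below turn on the difference between the arms. The neighbour miR-30c-1-3p and the brain miRNA miR-384-5p are added since they share a seed with members.
miR-30a-5p: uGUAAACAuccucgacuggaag
miR-30e-5p: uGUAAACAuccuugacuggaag
miR-30c-5p: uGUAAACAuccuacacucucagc
miR-384-5p: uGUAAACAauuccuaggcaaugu
miR-30a-3p: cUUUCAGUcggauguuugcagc
miR-30c-2-3p: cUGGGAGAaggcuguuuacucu
miR-30c-1-3p: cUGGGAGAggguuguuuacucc

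All 3 of the 5p members with a sequence start with U and carry the seed GUAAACA. Of the 450 miRNAs of the table with a sequence, miR-384-5p was the only one outside the family with this seed. Both 3p members with a sequence start with C, and their seeds differ, with UUUCAGU in miR-30a-3p and UGGGAGA in miR-30c-2-3p. No mature sequence was found for miR-30e-3p, but the 3p side of the Mir30e hairpin also holds UUUCAGU. Between miR-30a-5p and miR-30e-5p there is 1 difference in 22 bases, C13U, where position 1 is the first base and the letter of miR-30a-5p stands first. From miR-30c-5p, miR-30a-5p differs at 5 positions, all of them after the first 12 bases. miR-30c-5p is made from both Mir30c1 and Mir30c2, and its reads cannot be assigned to either gene. The 3p side of the Mir30e hairpin holds a stretch nearly identical to miR-30a-3p. The rule by which the authors divided reads among such close sequences is not given in the sources used here. The splits between miR-30a-5p and miR-30e-5p and between miR-30a-3p and miR-30e-3p are therefore uncertain, as are ratios built on them. The arms are seen together in the hairpin of Mir30a, in which capitals mark the 5p and then the 3p miRNA.
Mir30a: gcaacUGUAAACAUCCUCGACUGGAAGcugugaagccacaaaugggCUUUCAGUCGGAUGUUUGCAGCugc

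The libraries held between 10492610 and 15411620 counts, of which between 274789 and 551227 were miR-30 counts. No member was listed at 0 in any library, the smallest member count was 62, and all 10 members passed the filter on low counts that left 452 of the 493 miRNAs. Levels are given as CPM, the count of a miRNA in every 1000000 counts of its library, after scaling with edgeR's TMM factors, which lay between 1.16 and 1.39 in the MCAO rats and between 0.695 and 0.864 in the rTMS rats. The factors separate the groups, so the scaling bears on every fold change. The median log2 fold change of all 452 miRNAs, MCAO + rTMS over MCAO, was -0.21 with TMM factors, -0.50 with upper-quartile factors and -0.80 with library totals only. For this reason shares of counts and ratios between members within a library, which need no scaling, are given beside the levels. A miRNA read covers the whole molecule, so levels of different members were compared per read without a length correction. How well each sequence was captured in the libraries was not measured, so counts of different members or arms need not follow numbers of molecules. Ranks, shares and ratios are therefore statements about counts. The brain label was checked on 4 neuronal and cortical miRNAs taken as markers (miR-124-3p, miR-9a-5p, miR-128-3p and miR-138-5p), which summed to between 323535 and 420388 CPM in MCAO libraries and between 423227 and 610344 CPM in rTMS libraries. The higher sum came from miR-128-3p alone (log2 fold change 0.69), the 1 of the 4 called higher, while miR-138-5p was called lower (-1.65) and miR-124-3p and miR-9a-5p, at -0.49 and -0.16, were not called. Of 5 markers of microglia and leukocytes 4 were lower in the rTMS rats (quasi-likelihood test of edgeR, adjusted p under 0.05) and none was higher, and the sum of the 5 lay between 695 and 718 CPM in MCAO libraries and between 312 and 549 CPM in rTMS libraries. The 3 oligodendrocyte markers summed to between 572 and 786 CPM and between 963 and 2106 CPM, with 1 of the 2 tested higher. That one was miR-219a-2-3p, with means of 692 and 1617 CPM, while miR-338-3p had means of 21.3 and 12.9 CPM and was not called, and miR-219a-5p was at 0.46 CPM and at 0. Of the muscle markers 4 were analysed, 2 of them higher and 2 lower by the same test, and their sum was between 103 and 163 CPM and between 252 and 403 CPM. The higher sum came from miR-206-3p (means of 50.9 and 254 CPM) and miR-1-3p (6.67 and 37.1 CPM), while miR-133a-3p and miR-499-5p were lower. For the 2 red blood cell markers analysed, 1 higher and 1 lower, the sum was between 141 and 302 CPM and between 513 and 637 CPM. The higher one was miR-486, with means of 170 and 561 CPM, while miR-451-5p was lower, with means of 31.5 and 10.3 CPM. Of 4 vessel markers 1 was higher and 1 lower, and their sums overlapped between the groups. The part of any of these cells in the miR-30 values was not tested, and in whole tissue fewer cells of a type and less RNA per cell cannot be told apart.

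The 5p arms made up nearly the whole family in the MCAO rats. They took 4.18% ± 0.319 (SD, n = 3) of all counts there, against 2.37% ± 0.610 (SD, n = 3) in rTMS libraries. On the TMM scale the summed 5p arms lay between 28002 and 39194 CPM in MCAO libraries and between 23949 and 31712 CPM in rTMS libraries, which overlap, while the summed 3p arms lay between 713 and 900.4 CPM and between 2333 and 2758 CPM. The 3p arms took 0.102% ± 0.00249 and 0.206% ± 0.0170 of all counts (SD of 3 libraries). Within the family, the share of the 3p arms was therefore 2.39% ± 0.130 in the MCAO rats and 8.28% ± 1.80 in the rTMS rats (SD of 3 libraries), and the lowest rTMS library, at 6.93%, was above the highest MCAO library, at 2.48%. When the 2 most abundant members, miR-30c-5p and miR-30d-5p, were set aside, the 5p arms held 81.2% ± 1.38 of the remaining counts in the MCAO rats and 51.5% ± 0.758 in the rTMS rats (SD of 3 libraries). Counting error was small beside these differences. For the family share of a library the exact 95% binomial interval was at its widest from 4.62% to 4.64%, and all such intervals cover counting error only, since PCR copies are not independent molecules.

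The quasi-likelihood test of edgeR over all 452 miRNAs called 55.3% of them at an adjusted p under 0.05, 27.2% as higher in the rTMS rats and 28.1% as lower. By the same rule 4 of the 10 members were higher and 2 lower. The 4 higher members were all 3p arms (miR-30a-3p, miR-30e-3p, miR-30c-2-3p and miR-30b-3p), and the 2 lower members were both 5p arms (miR-30e-5p and miR-30b-5p). With library totals only, 3 members were higher and 4 lower, against 12.2% and 46.0% of all miRNAs, and upper-quartile factors gave 3 higher and 2 lower, against 18.8% and 38.1%. The levels did not overlap between the groups for the same 6 members, beside 30.8% of all tested miRNAs without overlap and higher and 36.1% without overlap and lower. No 5p arm was called higher and no 3p arm was called lower under TMM, upper-quartile or library-total scaling. Since the family was chosen with these values known, nothing is read from these counts, over the family or by arm. The median log2 fold change was -0.33 over the 5 members on the 5p arm and 1.14 over the 5 on the 3p arm, beside -0.21 over all tested miRNAs. With library totals only these medians were -0.90 and 0.52, beside -0.80.

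**Figure D1:**
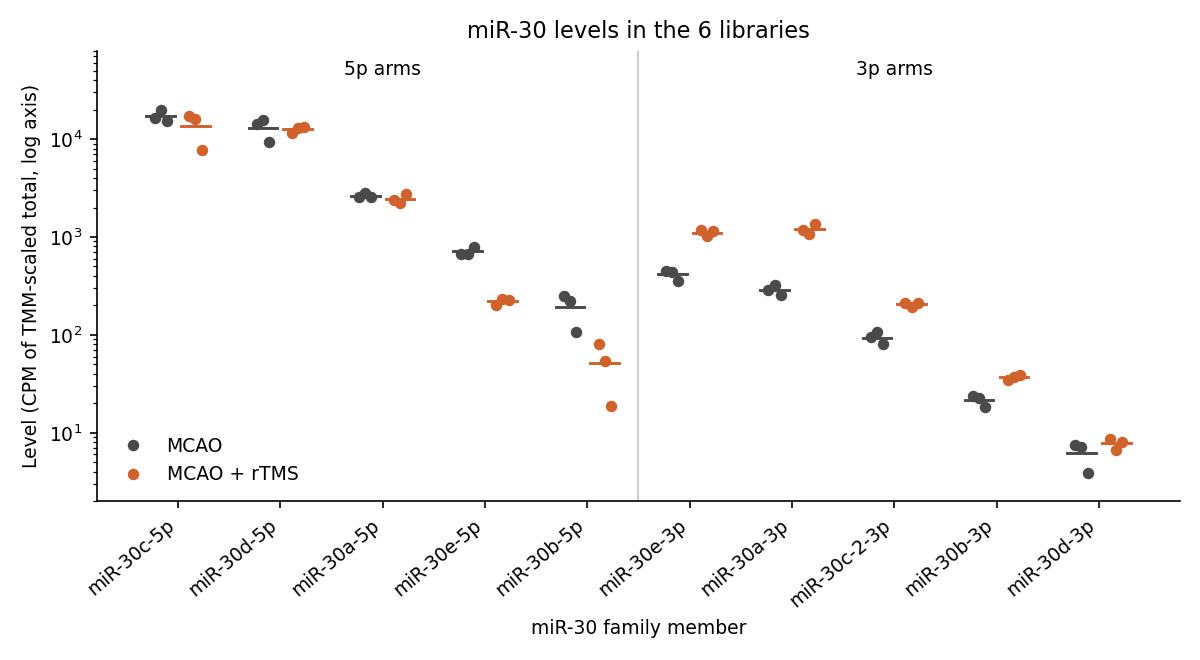
Level of each miR-30 member in each library, as CPM of the TMM-scaled total on a log axis, with 5p arms on the left and 3p arms on the right; points are libraries and short lines are the means of 3 libraries. The MCAO + rTMS points lie above all MCAO points for 4 of the 5 members on the 3p arm and below them for miR-30e-5p and miR-30b-5p.

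The abundant 5p members differed little between the groups on the TMM scale. rno-miR-30c-5p, the most abundant member in both groups, was at 16615, 19873 and 15184 CPM in the MCAO libraries and at 17413, 15961 and 7814 CPM in the rTMS libraries. The third rTMS library was far below the other 5, which covered a common range. The log2 fold change of miR-30c-5p was -0.33 (standard error, SE, 0.30), and without rTMS replicate 3 it was -0.02. rno-miR-30d-5p was at 14125, 15575 and 9389.8 CPM in the MCAO rats and at 11626, 12857 and 13159 CPM in the rTMS rats. Here the lowest library belonged to the MCAO rats, and the groups overlapped (log2 fold change -0.05, SE 0.21). rno-miR-30a-5p was at 2573, 2847 and 2537 CPM against 2390.4, 2235 and 2728 CPM, with a log2 fold change of -0.11 (SE 0.17), and the groups overlapped as well. With library totals only, all 3 had every rTMS library below every MCAO library, with log2 fold changes of -0.90 for miR-30c-5p, -0.66 for miR-30d-5p and -0.75 for miR-30a-5p. On that scale 55.3% of all tested miRNAs were lower without overlap and 14.6% higher. Taken relative to the median miRNA of that scaling, these values were -0.10, 0.14 and 0.05, and with TMM factors they were -0.12, 0.15 and 0.09.

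The 2 least abundant 5p members were lower in the rTMS rats. rno-miR-30e-5p, which differs from miR-30a-5p at the single position given above, was at 674, 678 and 785 CPM in the MCAO libraries and at 201, 233 and 228 CPM in the rTMS libraries. The groups were far apart compared with the spread within each, and the log2 fold change was -1.69 (SE 0.18), or -1.48 relative to the median of all miRNAs. Counts of miR-30a-5p were 3.82, 4.20 and 3.23 times those of miR-30e-5p in the MCAO libraries and 11.9, 9.61 and 11.9 times in the rTMS libraries. This ratio needs no scaling, and it did not overlap between the groups. rno-miR-30b-5p was at 247, 221 and 107 CPM in the MCAO rats and at 81.4, 54.7 and 18.8 CPM in the rTMS rats. It varied most among the members, with a coefficient of variation of 38.9% in the MCAO rats and 60.9% in the rTMS rats. Its log2 fold change was -1.89 (SE 0.54). As a description of how far it rests on single libraries, miR-30b-5p was not among the called miRNAs without MCAO replicate 1 (log2 fold change -1.66), without MCAO replicate 2 (-1.77) or without rTMS replicate 2 (-1.90).

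On the 3p side, rno-miR-30a-3p differed most. It was at 287, 323 and 257 CPM in the MCAO libraries and at 1182, 1076 and 1359 CPM in the rTMS libraries. The highest MCAO library, at 323 CPM, was far below the lowest rTMS library, at 1076 CPM. The log2 fold change was 2.06 (SE 0.19), a fold of 4.17, and with library totals only it was 1.43, a fold of 2.69. rno-miR-30e-3p, the opposite arm of the lower miR-30e-5p, was at 449.6, 441 and 354 CPM in the MCAO rats and at 1171, 1019 and 1141 CPM in the rTMS rats. Its log2 fold change was 1.42 (SE 0.18), or 0.80 with library totals only, and the groups did not overlap under either scaling. rno-miR-30c-2-3p, the arm opposite miR-30c-5p in the hairpin of Mir30c2, was at 94.0, 106 and 79.8 CPM against 212, 194 and 212 CPM, with a log2 fold change of 1.14 (SE 0.18), a fold of 2.21, and with library totals only it was 0.52, a fold of 1.44.

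The remaining 3p members were scarce. rno-miR-30b-3p was at 23.8, 22.9 and 18.4 CPM in the MCAO rats and at 34.5, 37.0 and 38.7 CPM in the rTMS rats, with a log2 fold change of 0.76 (SE 0.18). With library totals only it was 0.14 and the groups overlapped, so its call rests on the scaling, although relative to the median of all miRNAs the values were 0.97 and 0.94. rno-miR-30d-3p had the fewest counts, between 62 and 117 per library. Its levels were 7.45, 7.10 and 3.88 CPM against 8.73, 6.66 and 7.97 CPM, and the groups overlapped. The log2 fold change of miR-30d-3p was 0.34 (SE 0.30) under TMM scaling but -0.26 with library totals only, so no direction can be given.

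**Figure D2:**
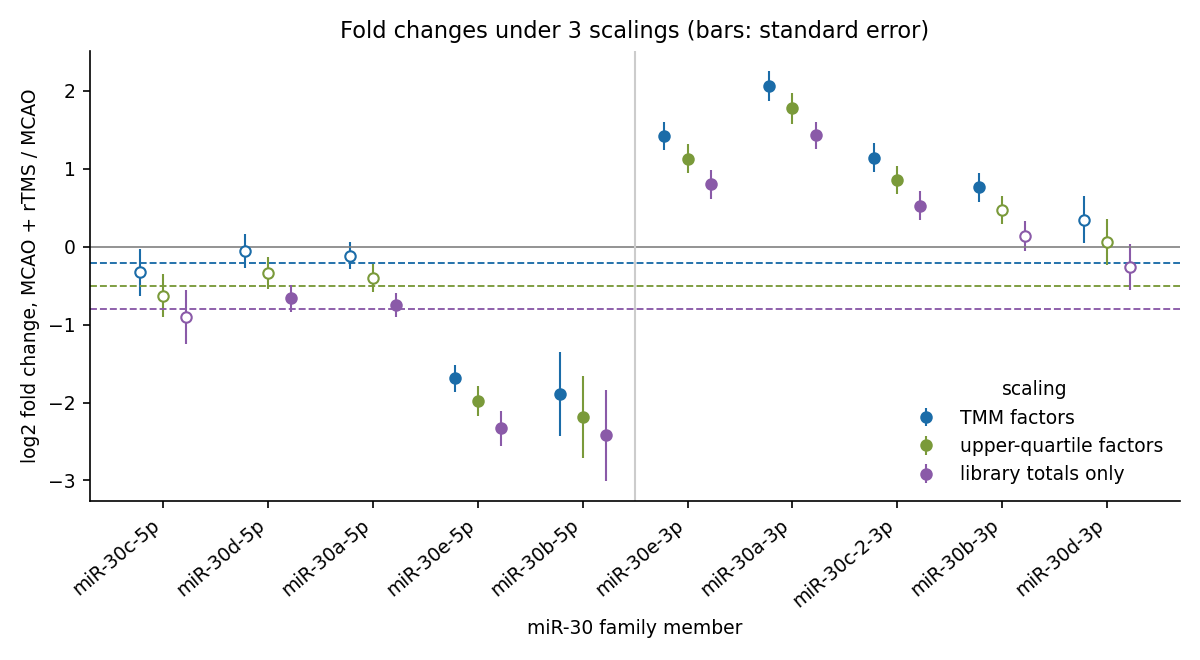
log2 fold change of each miR-30 member, MCAO + rTMS over MCAO, from edgeR under 3 scalings, with standard errors as bars, filled points where the adjusted p was under 0.05 and dashed lines at the median of all 452 tested miRNAs under each scaling. Scaling shifts all members together with the median, from -0.21 to -0.80, while the 3p arms stay above it and miR-30e-5p and miR-30b-5p stay below it.

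The order of the members differed between the groups. In the MCAO rats the order by mean level was miR-30c-5p, miR-30d-5p, miR-30a-5p, miR-30e-5p, miR-30e-3p, miR-30a-3p, miR-30b-5p, miR-30c-2-3p, miR-30b-3p and miR-30d-3p. Only the ranges of miR-30c-5p and miR-30d-5p overlapped there, and miR-30c-5p was still the higher of the 2 in 3 of 3 libraries. In the rTMS rats miR-30a-3p stood in place 4 and miR-30e-3p in place 5, ahead of miR-30e-5p in place 6, and miR-30b-5p stood behind miR-30c-2-3p in place 8. Neighbours in this second order whose ranges overlapped were miR-30c-5p and miR-30d-5p, miR-30a-3p and miR-30e-3p, miR-30e-5p and miR-30c-2-3p, and miR-30b-5p and miR-30b-3p. Among all 493 miRNAs, miR-30a-3p was at rank 105 by mean level in the MCAO rats and 59 in the rTMS rats, and miR-30e-3p at rank 91 and 63. In the opposite direction, miR-30e-5p went from rank 60 to 125 and miR-30b-5p from 119 to 195. miR-30c-5p was at rank 10 and 14, and miR-30d-5p at 14 and 15. The family order was the same when CPM of library totals was used.

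The family's reads were concentrated in few members on each side. miR-30c-5p and miR-30d-5p made up 51.2% ± 2.87 and 38.2% ± 4.09 of the 5p counts in the MCAO rats and 46.2% ± 11.9 and 44.2% ± 9.55 in the rTMS rats (SD of 3 libraries). The rTMS libraries differed among themselves, and replicate 3 stood apart, in which miR-30c-5p had 0.594 times the counts of miR-30d-5p, against 1.50 and 1.24 times in the other 2. The share of miR-30e-5p was 2.17% ± 0.562 against 0.777% ± 0.163, and that of miR-30b-5p 0.555% ± 0.170 against 0.170% ± 0.0893 (SD of 3 libraries). On the 3p side miR-30e-3p led in the MCAO rats, with 50.3% ± 1.67 of the 3p counts against 35.1% ± 1.55 for miR-30a-3p (SD of 3 libraries). In the rTMS rats miR-30a-3p led with 46.9% ± 2.09, and miR-30e-3p had 43.3% ± 1.81 (SD of 3 libraries). The ratio of miR-30a-3p to miR-30e-3p was below 1 in all 3 MCAO libraries (0.638, 0.732 and 0.728) and above 1 in all 3 rTMS libraries (1.01, 1.06 and 1.19).

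**Figure D3:**
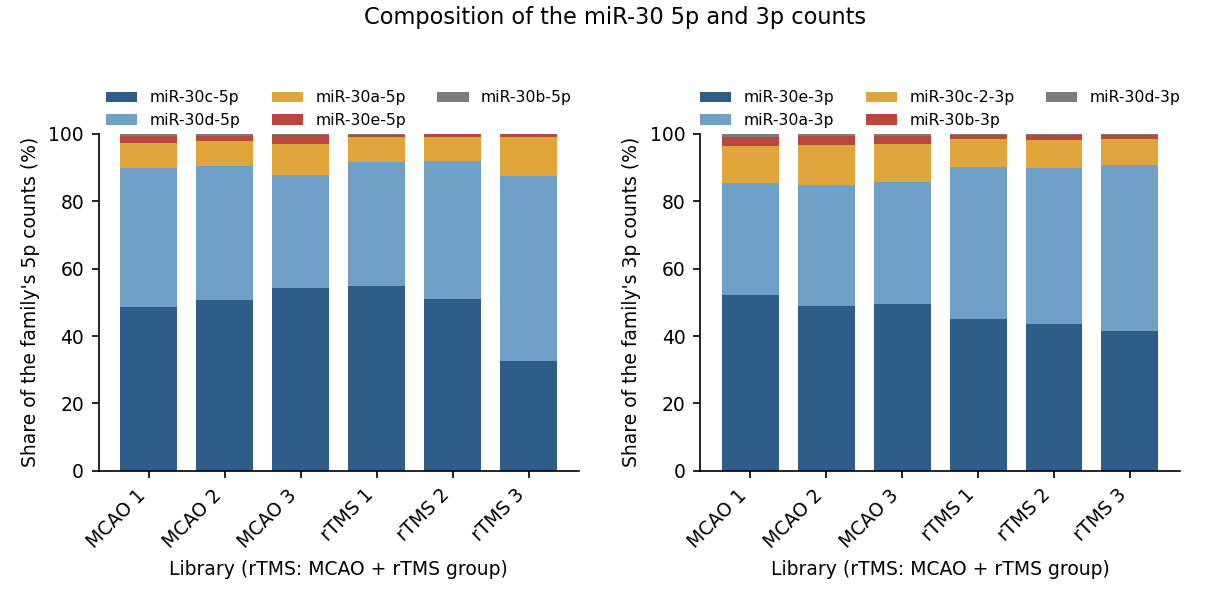
Share of each member in the family's 5p counts (left) and 3p counts (right), in percent, for each of the 6 libraries. miR-30c-5p and miR-30d-5p fill most of each 5p bar, with the smallest miR-30c-5p share in MCAO + rTMS replicate 3, and miR-30a-3p takes a larger part of the 3p bars in the MCAO + rTMS libraries than in the MCAO libraries.

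The ratio of the 5p count to the 3p count of a hairpin was then taken within each library. It is free of the scaling, since both arms are divided by the same total. For miR-30e it was 1.50, 1.54 and 2.22 in the MCAO libraries and 0.172, 0.228 and 0.200 in the rTMS libraries. The 5p arm of miR-30e thus had the higher count in 3 of 3 MCAO libraries, and the 3p arm in 3 of 3 rTMS libraries. On the log2 scale the mean ratio was 0.78 ± 0.32 and -2.33 ± 0.20 (SD of 3 libraries), a difference of -3.12, or 8.67-fold lower in the rTMS rats.

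For miR-30a the ratio was 8.97, 8.81 and 9.86 in the MCAO rats and 2.02, 2.08 and 2.01 in the rTMS rats. The spread within a group was narrow, the 5p arm stayed ahead in all 6 libraries, and the difference of the log2 means was -2.18. miR-30b varied far more, with ratios of 10.4, 9.66 and 5.80 against 2.36, 1.48 and 0.485. In rTMS replicate 3 its 3p arm exceeded its 5p arm. The log2 difference for miR-30b was -2.81, and -2.16 without that library.

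For miR-30c the ratio of miR-30c-5p to miR-30c-2-3p was 177, 188 and 190.3 in the MCAO rats and 82.2, 82.2 and 36.9 in the rTMS rats. The log2 difference was -1.55, and -1.17 without rTMS replicate 3. Because miR-30c-5p comes from 2 genes, the counts of miR-30c-1-3p were also added to the 3p side, and the difference was then -1.56. miR-30d was almost entirely 5p, with ratios of 1896, 2195 and 2418 against 1332, 1930.4 and 1651. The exact 95% binomial intervals of these ratios were wide, for example from 1111 to 1613 for the lowest of them, and the groups overlapped, with a log2 difference of -0.41. Hence 4 of the 5 hairpins had a ratio that was lower in every rTMS library than in every MCAO library, and among all 117 hairpins with a count on both arms in every library 28.2% had such a lower ratio and 28.2% such a higher ratio. Of the 63 hairpins with a mean count of at least 200 on both arms, 28.6% were lower and 30.2% higher in this sense.

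**Figure D4:**
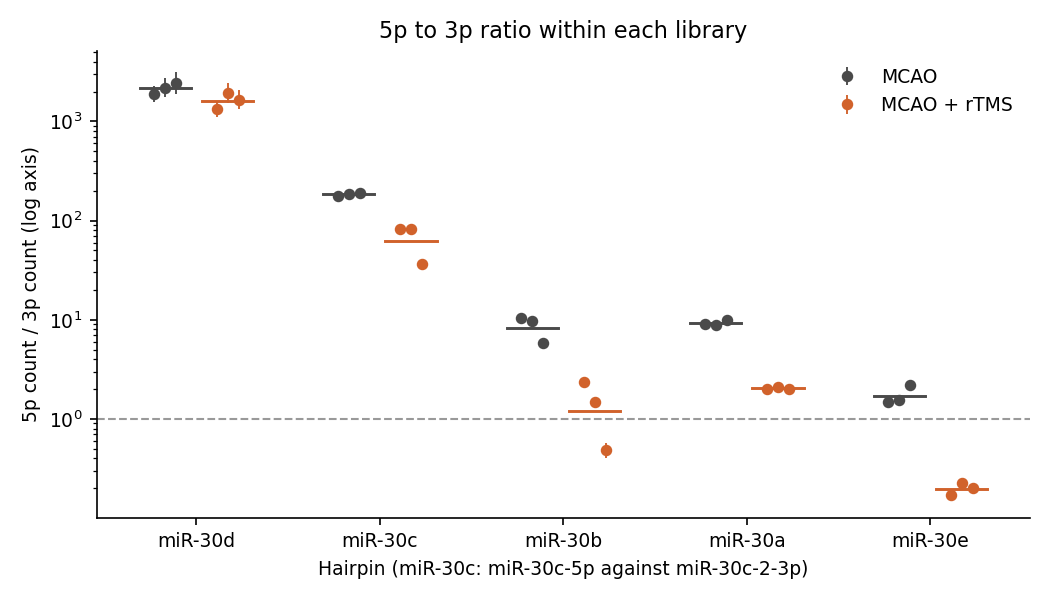
Ratio of the 5p count to the 3p count of each miR-30 hairpin in each library, on a log axis; points are libraries with exact 95% binomial intervals, short lines are geometric means of 3 libraries, and the dashed line marks equal counts. All 3 MCAO + rTMS points of miR-30e lie below the dashed line and all 3 MCAO points above it, while the points of miR-30d overlap.

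The hairpins of the whole table differed in both directions. Over those 63 hairpins, the difference of the log2 ratio had a median of -0.12 and quartiles of -0.85 and 0.88. In that order, from the lowest difference, miR-30e was at place 1, miR-30b at place 2, miR-30a at place 7 and miR-30c at place 13. miR-30d has too few 3p counts to be included. Among the hairpins of other families next to a miR-30 hairpin in this order were miR-195 at place 3, with a difference of -2.71, and miR-139 at place 6, with -2.24. A ratio lowered as much as that of miR-30a was therefore also found outside the family. Among all 117 hairpins with a count on both arms in every library, miR-30e was at place 3 and miR-30b at place 5. In that longer order miR-30a was at place 14, miR-30c at place 21 and miR-30d at place 46. Before miR-30e (-3.12) stood miR-106b (-4.04) and miR-135a (-3.33), each with too few counts on an arm to be among the 63. The values describe where the family stands, and no test was made since it was chosen with these differences known.

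**Figure D5:**
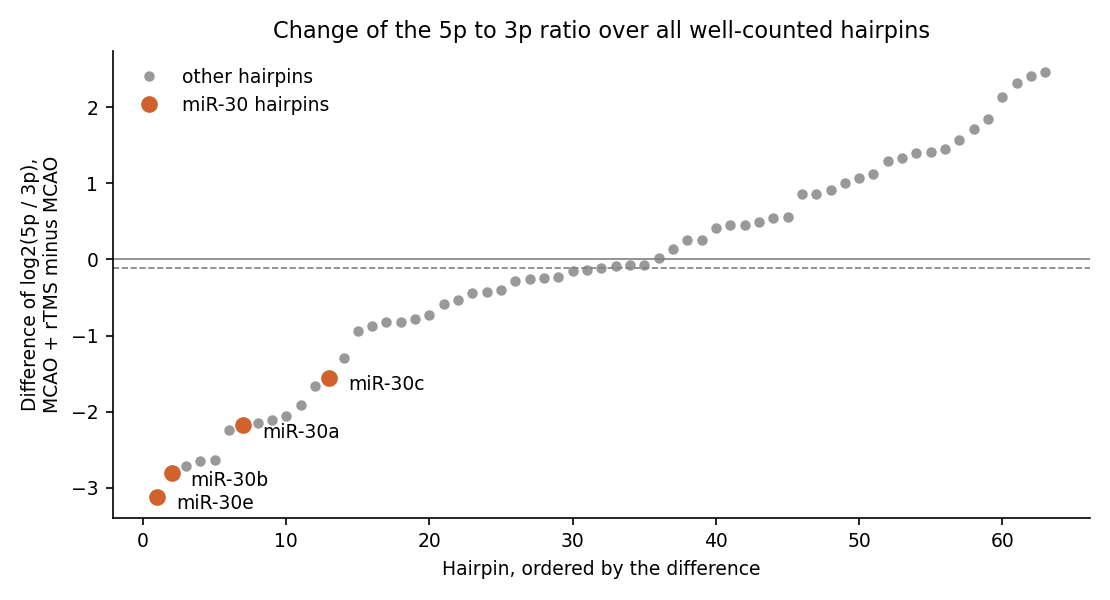
Difference of the mean log2 ratio of 5p to 3p counts, MCAO + rTMS minus MCAO, for the 63 hairpins with a mean count of at least 200 on both arms, in increasing order, with miR-30 hairpins in orange and a dashed line at the median of -0.12. The 4 miR-30 hairpins shown lie at places 1, 2, 7 and 13.

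Members from neighbouring genes were set side by side, since neighbours are often transcribed together. For Mir30e and Mir30c1 the 3p arms were in similar proportion in both groups. miR-30c-1-3p was at 12.4, 14.4 and 11.3 CPM in the MCAO rats and at 31.7, 30.2 and 27.9 CPM in the rTMS rats, a log2 fold change of 1.24 (SE 0.19) beside 1.42 for miR-30e-3p. Counts of miR-30e-3p were 32.7 ± 3.20 times those of miR-30c-1-3p in the MCAO rats and 37.2 ± 3.56 times in the rTMS rats (SD of 3 libraries), and these ranges overlapped. For Mir30a and Mir30c2 the proportion differed. miR-30a-3p had 3.05, 3.05 and 3.22 times the counts of miR-30c-2-3p in the MCAO libraries and 5.58, 5.54 and 6.41 times in the rTMS libraries. The 5p arms of Mir30d and Mir30b were also uneven, with counts of miR-30d-5p 71.9 ± 15.4 times those of miR-30b-5p in the MCAO rats (SD of 3 libraries) and a ratio from 143 to 702 in the rTMS rats. The ratio of their 3p arms, miR-30b-3p to miR-30d-3p, was 3.20, 3.22 and 4.74 in the MCAO libraries against 3.96, 5.56 and 4.85 in the rTMS libraries, and it overlapped between the groups. The 3p arms of the 2 paralogs miR-30c-2 and miR-30c-1, which share a seed and differ at 3 bases, stood at 7.33 ± 0.287 to 1 in the MCAO rats and 6.91 ± 0.611 to 1 in the rTMS rats (SD of 3 libraries), and these ranges overlapped.

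miR-384-5p, which carries the 5p seed of the family but comes from Mir384 on the X chromosome, was at 196, 179.6 and 185 CPM in the MCAO libraries and at 82.9, 67.4 and 48.6 CPM in the rTMS libraries. It had a log2 fold change of -1.49 (SE 0.23), and its groups did not overlap. The 3p arm of miR-384 was lower as well, from 29.6 ± 8.93 to 6.94 ± 1.55 CPM (SD of 3 libraries), a log2 fold change of -2.09 (SE 0.29). On the same TMM scale 4 of the 5 miR-30 3p arms were called higher, and miR-30d-3p was not called. The log2 ratio of the 5p to the 3p arm of miR-384 was 2.70 ± 0.36 in the MCAO rats and 3.25 ± 0.21 in the rTMS rats (SD of 3 libraries). The difference of 0.55 was opposite in sign to those of all 5 miR-30 hairpins, of which miR-30d overlapped between the groups.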

How the data were processed

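Values were the raw read counts that the authors deposited, for 493 mature miRNAs in 6 libraries. A second table held the same counts for the 73 of them that the study reported as differing between the groups. Of these, 4 are miR-30 members (miR-30a-3p, miR-30c-2-3p, miR-30e-5p and miR-30e-3p). Of the 2958 counts 286 were 0 and the smallest other count was 10, so a 0 may stand for a low count. Per the labels, libraries were made with a ligation kit for small RNA, and bcl2fastq, BWA, DESeq2 and the rn6 build were named in the submitters' processing notes. The miRNA database and the handling of reads that fit more than 1 miRNA are not given in the sources used here.

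The analysis used R 4.3.3 and edgeR 4.0.16 (filterByExpr, TMM factors, quasi-likelihood test, Benjamini-Hochberg adjustment over 452 miRNAs). The standard error was taken as the size of the log2 fold change over the root of its F statistic. DESeq2 1.42.0 and limma 3.58.1 served as alternatives. The methods of the study name a two-sample test, and one with equal variances was run on log2 values of CPM plus 1 as an alternative. Total counts lay between 10492610 and 15411620. The p-values set the difference between the groups against the spread between these libraries, each from 1 rat.

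Named miRNAs were the 10 members, miRNAs that share their seeds, miR-30c-1-3p, and up to 2 neighbouring hairpins in the ranking of arm ratios. Also named were the hairpins with a ratio lowered more than that of miR-30e, and the 3 miRNAs closest in profile to each arm's sum. Members, lists and rules were chosen with earlier results of these data known. Adding miR-30c-1-3p to the arm ratio of miR-30c was chosen after the values were seen.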

Additional observations from a re-analysis of the deposited data

How the results depend on the processing

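Of the 10 members, miR-30a-3p, miR-30e-3p, miR-30c-2-3p and miR-30e-5p had the same direction and were called in all 16 alternative fits, which describes the settings and is no support for the differences, since the family was selected on them. The number of members lower in the rTMS rats, 2, was 4 with library totals only and 1 by the two-sample test with equal variances, and leaving out single libraries gave 1 to 2. The number higher, 4, was 3 with library totals only, and again 3 under upper-quartile scaling, in which miR-30b-3p lost the threshold. miR-30d-5p changed direction, with log2 fold changes of 0.0076 with RLE factors, 0.0076 with DESeq2 and between -0.21 and 0.095 with single libraries left out, and miR-30d-3p did so with library totals only (-0.26). The cause was not tested beyond the shift of the median. miR-30d-3p could not be tested at a mean count of at least 200. Over all tested miRNAs 250 were called, 123 higher and 127 lower, against 55 and 208 with library totals only and 85 and 172 with upper-quartile factors, and between 179 and 253 with single libraries left out. With the replicate number as a block the call of no member changed, and 180 miRNAs were called. The deviations of same-numbered libraries correlated at 0.20, -0.12 and -0.11, beside -0.28 to 0.30 for the other pairs. With 3 libraries per group these values cannot show whether the numbers pair the rats. The log2 differences of the 5p to 3p ratio ranged, with 1 library left out, from -3.22 to -2.93 for miR-30e, from -3.30 to -2.16 for miR-30b, from -2.21 to -2.13 for miR-30a, from -1.75 to -1.17 for miR-30c and from -0.54 to -0.27 for miR-30d.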

Other observations

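The miRNAs whose levels over the 6 libraries ran closest to the sums of the miR-30 arms were looked up among 277 other miRNAs with a mean count of at least 200, by the root mean square difference of log2 values of CPM plus 1 after each profile was centred. Closest to the summed 5p arms were miR-210-3p, a miRNA known for its induction by low oxygen, with a difference of 0.13, let-7e-3p with 0.14 and miR-185-5p with 0.15. Closest to the summed 3p arms were miR-493-5p with 0.16, miR-1b with 0.18 and miR-378b with 0.18. The log2 fold changes of the latter 3, rTMS over MCAO rats, were 1.63, 1.91 and 1.32 in the edgeR fit. Those of miR-210-3p, let-7e-3p and miR-185-5p were -0.35, -0.05 and -0.11. The likeness is a description over 6 libraries that fall into 2 groups.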
